A study of Homo sapiens with 4 samples.

Results

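The genes described are PMEL, MLANA, GPR143, GPNMB, CD63 and BACE2, which encode proteins of the matrix and membrane of the melanosome or proteins that process them. Sites of the transcription factor TBX3 were taken for them from 2 lists of ChIP-seq (chromatin immunoprecipitation and sequencing) peaks, by the gene that the deposited annotation names for each peak, at any distance. Of these 6 genes, 4 were named, among 12468 genes named in either list. They had 18 of the 32479 peaks of replicate 1 and 18 of the 40494 peaks of replicate 2. The cells were 501mel, an established human melanoma line grown in RPMI-1640 with fetal bovine serum. Both ChIP samples were TBX3-3xHA, that is TBX3 fused to the HA peptide, recovered with an antibody to HA from chromatin fixed with formaldehyde. There were also 2 input samples, which were not analysed here. The labels name a single condition and no sample without the tag, and they do not say how the tagged protein was introduced or how much of it the cells made, so the sites are those of the tagged protein in this line alone. Where the replicates differ, that spread may be technical, because the labels do not say whether they were separate cultures.

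A melanosome is an organelle related to the lysosome in which melanocytes make and store melanin. It begins as an endosome in which PMEL is cut and its luminal fragments assemble into amyloid fibrils, the scaffold on which melanin later settles. CD63, a tetraspanin of endosomes, helps to sort PMEL into that compartment, BACE2 is a protease that releases the fibril-forming fragment, and MLANA (MART-1) is a small membrane protein that binds PMEL and assists its maturation. GPR143 (OA1) is a receptor of the melanosome membrane that controls melanosome size and is mutated in X-linked ocular albinism, and GPNMB is a glycoprotein related to PMEL that is found in melanosomes and lysosomes. Many genes of this kind are activated in melanocytes by MITF, a factor that binds E-box sequences such as CACGTG and CATGTG. TBX3 belongs to the T-box family and is known mostly as a repressor. T-box proteins recognise DNA with the core GGTGTGA.

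Each peak was deposited as a summit of a single base in the human build hg38, with a score whose scale the files do not state. Scores are therefore to be read within their own list, by the rank or percentile where one is given. The median score was 12.4 in replicate 1 and 13.9 in replicate 2. A region is called shared where a summit of each list was the other's nearest and they lay within 200 bp. The distance given is from the transcription start site (TSS) of the deposited annotation, negative where the summit lies upstream. Both lists named 4 of the 6 genes, PMEL, MLANA, GPR143 and GPNMB, and the other two, CD63 and BACE2, were named for no summit of either list. The 4 genes had 12 shared regions, 4 at GPR143, 3 each at MLANA and GPNMB and 2 at PMEL. Such a pair lay no farther than 10 kb from a start for 4 of the 6, where 10.1% of all 19974 protein-coding genes did, and at any distance the share of all genes was 28.6%. With at least 2 shared regions at any distance they were also 4 of 6, against 12.8% of all genes. Counts at any distance depend on how far the next gene lies, so the counts within 10 kb are the closer comparison. A single ChIP condition allowed no test between conditions, and none was made between these genes and others.

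The promoters of GPR143, GPNMB and MLANA held a summit within the 250 bases upstream of the TSS in RefSeq, that of MLANA in replicate 2 only. They are printed because they are the members' sequences on which a summit can be placed. A CD63 promoter is printed beside them, as that of a member with no summit named for it in either list. CD63 had 8 RefSeq windows, and the printed one is the only one that held CACGTG or CATGTG. RefSeq windows (GRCh38.p14, 250 bases before to 50 after a start) matched 4 of the 6 genes. PMEL and BACE2 were not matched. Sequences run 5′ to 3′ along the gene, and capitals mark each match to CACGTG or CATGTG on either strand, the latter reading CACATG where it lies on the opposite strand. Their positions are chrX:9765848-9766097 (minus strand) for GPR143, chr7:23246525-23246774 (plus strand) for GPNMB, chr9:5890639-5890888 (plus strand) for MLANA and chr12:55729010-55729259 (minus strand) for CD63.
GPR143: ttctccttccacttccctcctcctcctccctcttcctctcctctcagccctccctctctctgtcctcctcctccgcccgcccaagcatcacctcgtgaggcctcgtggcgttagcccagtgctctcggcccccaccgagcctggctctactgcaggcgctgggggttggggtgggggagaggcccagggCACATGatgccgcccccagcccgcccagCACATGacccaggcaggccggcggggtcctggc
GPNMB: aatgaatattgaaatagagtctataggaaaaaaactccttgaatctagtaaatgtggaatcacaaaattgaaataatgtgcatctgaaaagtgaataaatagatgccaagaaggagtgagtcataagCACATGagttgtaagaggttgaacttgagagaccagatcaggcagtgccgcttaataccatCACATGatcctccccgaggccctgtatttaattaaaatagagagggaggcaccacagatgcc
MLANA: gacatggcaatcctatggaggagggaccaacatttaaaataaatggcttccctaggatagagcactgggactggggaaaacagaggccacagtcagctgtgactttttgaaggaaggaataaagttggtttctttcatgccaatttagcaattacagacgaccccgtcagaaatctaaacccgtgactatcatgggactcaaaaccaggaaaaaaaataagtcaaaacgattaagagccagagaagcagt
CD63: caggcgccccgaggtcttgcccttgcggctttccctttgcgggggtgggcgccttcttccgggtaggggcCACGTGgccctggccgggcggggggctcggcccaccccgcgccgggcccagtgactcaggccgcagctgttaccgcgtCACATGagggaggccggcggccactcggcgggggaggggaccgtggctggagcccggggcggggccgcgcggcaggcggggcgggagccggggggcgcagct

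The GPR143 and GPNMB sequences each held CACATG at 2 places. In GPR143 it lay at -61 to -56 and -33 to -28, and in GPNMB at -123 to -118 and -62 to -57, counted from the RefSeq TSS. The printed CD63 sequence held CACGTG at -180 to -175 and CACATG at -102 to -97, and the MLANA sequence held neither. Over the full windows of 300 bases, CATGTG on either strand was present in 11.1% of 34943 RefSeq promoters and CACGTG in 7.23%, and 1.47% held CATGTG at least 2 times, a count made after these matches were seen. The T-box core GGTGTGA, on either strand, was in 3.45% of all promoters and in none of the windows of GPR143, GPNMB and MLANA. Its shorter form GTGTGA, which GGTGTGA contains, was in 12.0% and also in none of the 3. The printed CD63 window held neither form, but other CD63 windows did, as given in the closing section. Only promoter windows were searched. The sequences under the summits outside them, those with the highest scores included, were not searched for any of these motifs. A match describes the letters only, and no binding of MITF was measured here.

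GPR143, the receptor of the melanosome membrane, was the gene whose summits all recurred. The list of replicate 1 held 4 summits and that of replicate 2 held 4, and they formed 4 shared regions. The region with the highest scores had summits on chromosome X at 9767586 in replicate 1 and 9767564 in replicate 2, at -1621 and -1599 bp. Its score was 203.5 in replicate 1, rank 547, and 281.4 in replicate 2, rank 659, at percentiles of 98.3 and 98.4. The deposited annotation calls the position intergenic, yet it lies inside the span RefSeq gives for GPR143, 9725346 to 9778602, which extends farther upstream than the deposited TSS.

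At the promoter of GPR143 the summits were at 9765949 and 9765903, 16 and 62 bp downstream of the deposited TSS. Scores there were 55.2 in replicate 1, at percentile 86.6, and 98.8 in replicate 2, at percentile 91.3. The RefSeq TSS lies 118 bp from the deposited one, so on the printed sequence these summits stand at -102 and -56. The replicate 2 summit fell on a base of the CACATG at -61 to -56, and the replicate 1 summit was 41 bp from it. The 2 summits were 46 bp apart, so their places relative to the motif are known no more finely than that.

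The other GPR143 regions were weaker and far downstream of its start. In intron 8 of 8, summits at 9729355 and 9729276 had scores of 33.1 and 50.0, at percentiles 77.4 and 81.7. The last lay 121520 bp from the TSS in replicate 1 and 121545 bp in replicate 2, with scores of 23.1 and 34.3. It falls in intron 3 of 16 of TBL1X, a neighbouring gene that encodes a corepressor subunit, and GPR143 was named only because its start was the nearest. Scores at GPR143 therefore ordered the same way in both lists, highest upstream of the promoter, then at the promoter, then in the last intron, then in TBL1X.

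MLANA had a cluster of summits around its start. It had 5 summits in replicate 1 and 6 in replicate 2, of which 3 were shared, and all 3 lay within 10 kb of the TSS. Only 0.441% of protein-coding genes had at least 3 shared regions that near, and MLANA was the only member that did. The highest had summits on chromosome 9 at 5895891 and 5895877, in intron 2 of 4, at 4982 and 4968 bp. Its score was 122.5 in replicate 1, rank 1454, and 255.0 in replicate 2, rank 803. The second, upstream, had summits at 5886401 and 5886405, at -4508 and -4504 bp, with scores of 79.6 and 120.7 at percentiles 91.5 and 93.3. The replicate 2 summit of that pair was annotated inside a MIR element, a short interspersed repeat, and the replicate 1 summit, 4 bp away, was not.

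A weaker MLANA region lay in intron 3 of 4 with summits at 5898129 and 5898100, both within an AluJb repeat. Its score was 6.43 in replicate 1, at percentile 23.1, and 19.2 in replicate 2, at percentile 59.8. The promoter itself had no shared region. Replicate 2 had a summit at 5890798, at -111 bp, with a score of 7.62. Replicate 1 had its nearest summit at 5891197, 288 bp downstream, with a score of 4.50. These lay 399 bp apart and both scored below the median of their lists, so at the MLANA start the replicates did not mark the same position. The remaining MLANA summits were found in 1 list each: at 5894899 in an LTR50 repeat in replicate 1 (score 8.54), and at 5892540 in exon 2 of 5 (score 3.68) and 5910777 at the gene end (score 4.90) in replicate 2.

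GPNMB, the relative of PMEL, had its strongest region well upstream of the gene. Summits on chromosome 7 at 23230690 and 23230700 lay at -16007 and -15997 bp in intergenic sequence. The score was 83.2 in replicate 1, rank 2599 of its list, and 333.6 in replicate 2, rank 434 of its list. The replicate 2 score was the highest of any summit named for the 6 genes, whereas in replicate 1 this region stood behind summits of GPR143 and MLANA. At the promoter, summits at 23246770 and 23246774 were 4 bp apart, 73 and 77 bp downstream of the deposited TSS. Scores were 20.8 in replicate 1, at percentile 65.6, and 29.6 in replicate 2, at percentile 71.0. The RefSeq TSS is 78 bp from the deposited one, which places these summits at -5 and -1 on the printed sequence, 52 and 56 bp from the nearer CACATG.

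The third GPNMB region was intergenic too, with summits at 23216293 and 23216254, at -30404 and -30443 bp. Its scores were 15.9 and 36.0, at percentiles 57.9 and 75.4. Beyond the promoter region, no shared region lay within the body of the gene. There, replicate 1 had a summit at 23267018 in intron 7 of 10 (score 7.82) and replicate 2 had one at 23271300 in intron 9 of 10 (score 6.60), each inside a DNA transposon and 4282 bp apart. Replicate 2 had a further summit in intron 9, at 23273210 with a score of 4.59, which the annotation names for the neighbour MALSU1. Replicate 1 alone had a summit at 23222820, in an LTR element, with a score of 5.68.

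PMEL, which encodes the fibril scaffold, had the lowest of the 4 genes' highest scores in each list, 13.4 in replicate 1 and 24.2 in replicate 2. Each list held 4 summits, of which 2 pairs were shared. In intron 1 of 10, summits on chromosome 12 at 55965330 and 55965429 lay 732 and 633 bp downstream of the TSS, with scores of 8.73 in replicate 1, at percentile 36.0, and 24.2 in replicate 2, at percentile 66.4. In exon 7 of 12, summits at 55957252 and 55957346 lay 8810 and 8716 bp downstream, with scores of 13.4, at percentile 52.2, and 6.92, at percentile 26.6. The order of the 2 regions by score was thus reversed between the lists. Their summits were also the farthest apart of all shared regions of the members, 99 and 94 bp, and neither was shared when summits had to lie within 50 bp. The unshared PMEL summits had scores of 8.21 and 5.53 in replicate 1 and 4.37 and 6.35 in replicate 2. The last of these lay in exon 8 of 12 of PMEL. The others were annotated to the neighbouring gene DGKA, in its introns or at its end. The summit at the DGKA end, with a score of 5.53 in replicate 1, also lies inside the span RefSeq gives for PMEL.

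A strong region beside PMEL was named for another gene. Summits at 55970825 and 55970783 had scores of 165.1 in replicate 1, rank 823, and 217.9 in replicate 2, rank 1073. They lie in intron 5 of 6 of CDK2, a cell cycle kinase, and the annotation assigns them to RAB5B, an endosomal GTPase with distances of -3088 and -3130 bp. Measured from the PMEL TSS they stood at -4763 and -4721 bp. PMEL, CDK2 and RAB5B share this neighbourhood, and the lists do not tell which of them the site belongs to. At percentiles of 97.5 and 97.4, the region scored above every summit named for PMEL.

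**Figure D1:**
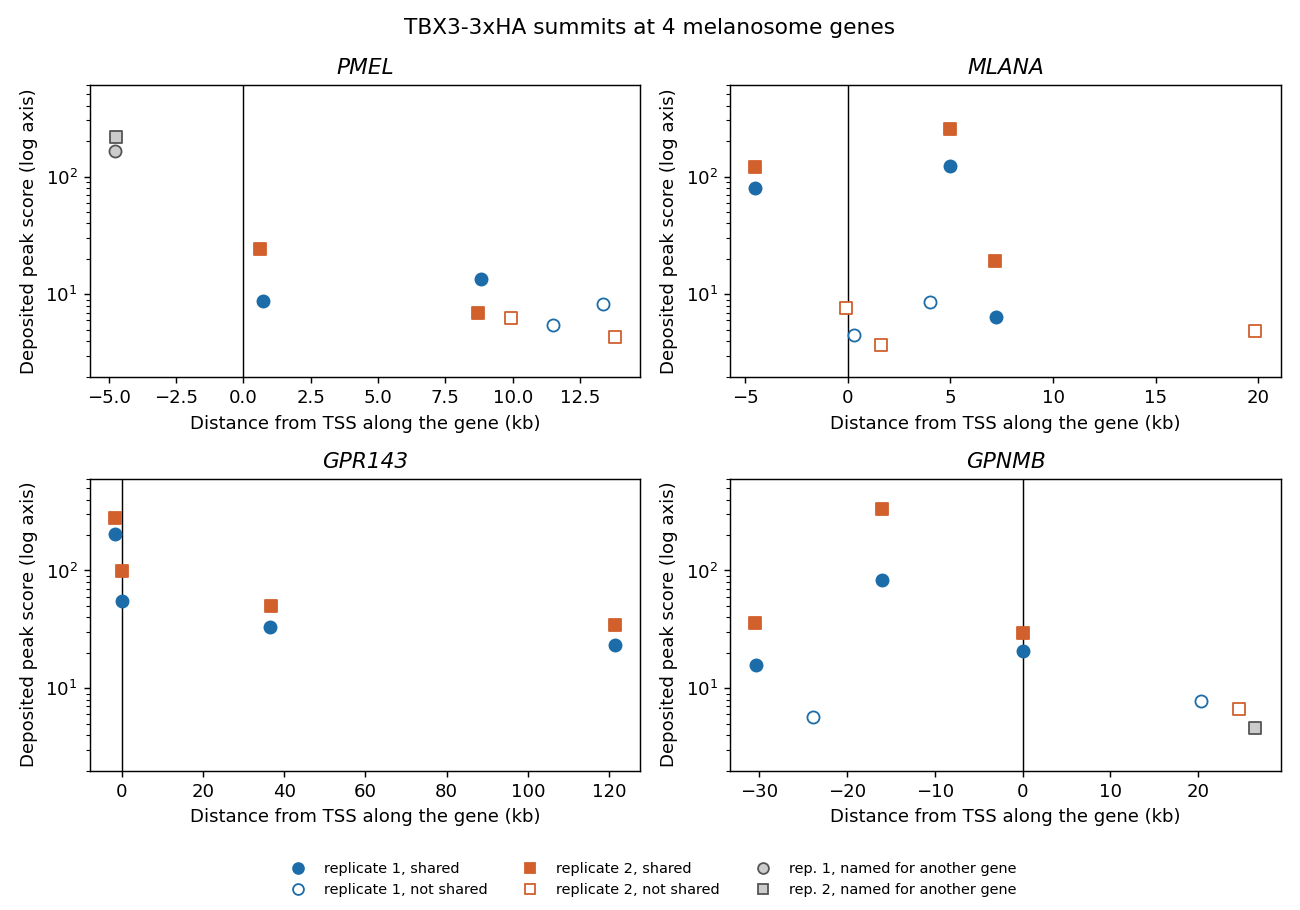
Deposited peak score (log axis, in the authors' unstated scale) against distance from the deposited TSS along the gene (kb) for the 4 genes with summits; circles are replicate 1, squares replicate 2, filled where shared within 200 bp, open where not, and grey where the annotation names another gene. The highest points lie upstream of GPR143, in intron 2 of MLANA and at -16007 bp of GPNMB, while at PMEL the highest points are the grey ones in CDK2.

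CD63 and BACE2 had no summit named for them, and the surroundings differed. CD63, on chromosome 12 at 55723535 to 55730041 in RefSeq, held no summit of either list within its span. The nearest was a shared region at 55718192 and 55718258, 5343 and 5277 bp outside the span, in intron 2 of 3 of BLOC1S1, which encodes a subunit of a complex that forms melanosomes and other lysosome-related organelles. Its scores were 27.5 in replicate 1 and 54.7 in replicate 2, at percentiles 73.2 and 83.2. On the other side, a shared region upstream of GDF11 lay 8247 and 8226 bp outside the CD63 span, with scores of 12.2 and 9.48. CD63 had 8 RefSeq promoter windows, and none of them held a summit, the printed one with its CACGTG and CACATG included.

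BACE2 spans 41168160 to 41282530 on chromosome 21, the longest of the 6 genes at 114371 bp. Replicate 2 had a single summit inside it, at 41250706 in intron 6 of 7, with a score of 14.2 at percentile 50.9, and the annotation names it for PLAC4. Replicate 1 had none inside, and its nearest summit was 54699 bp outside. BACE2 therefore had no shared region in its span. Because the read depth of the libraries is unknown, a lack of summits here means only that none was listed.

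Recurrence of the members' summits is given beside that of the whole lists. Of the 18 summits in each list, 12 had a partner in the other list (66.7%, 95% Wilson interval 43.7% to 83.7%), while 69.9% of all replicate 1 summits and 56.1% of all replicate 2 summits had one. At or above the median, 10 of 10 in replicate 1 and 11 of 11 in replicate 2 recurred, where the shares over all summits of that score were 92.4% and 83.7%. Below the median, 2 of 8 recurred in replicate 1 and 1 of 7 in replicate 2, where 45.7% and 27.6% of all such summits did. The intervals of the members' shares include the shares of all summits in each case, so with 18 summits a list no difference from other summits of like score could be told. Intervals cover counting error only, and summits of the same gene are not independent.

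**Figure D2:**
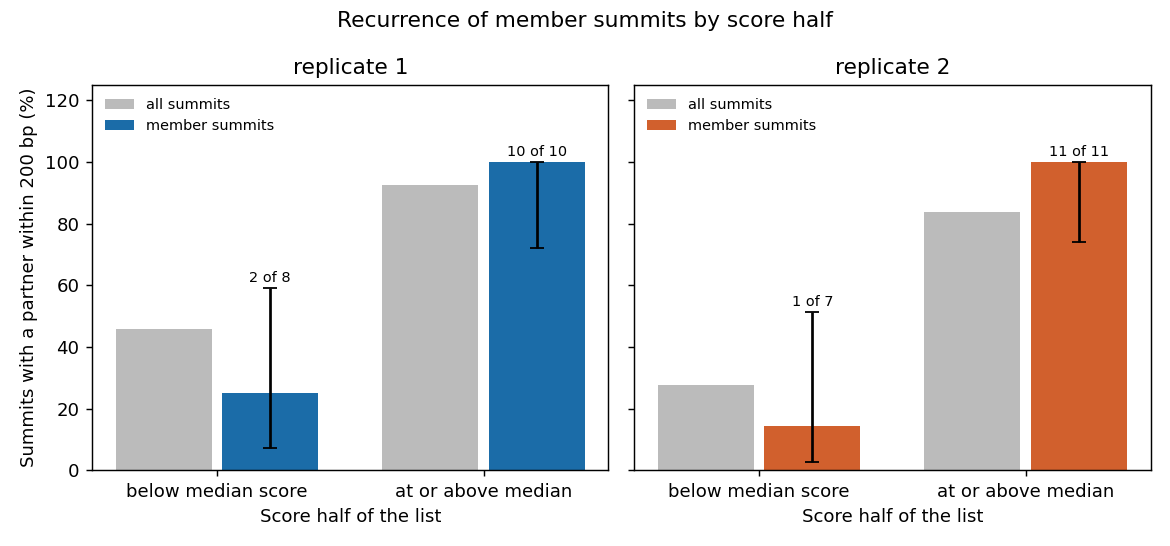
Percent of summits with a partner within 200 bp in the other replicate, for summits below and at or above the median score of each list; grey bars are all summits, coloured bars the members' summits with 95% Wilson intervals and their counts. Every member summit at or above the median recurred, 10 of 10 and 11 of 11, and 2 of 8 and 1 of 7 did below it.

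The 12 shared regions had scores from 6.43 to 203.5 in replicate 1 and from 6.92 to 333.6 in replicate 2, at percentiles from 23.1 to 98.3 and from 26.6 to 98.9. In both lists, 4 of them were in the top 10%: that of GPR143 at -1621 bp, those of MLANA at -4508 and 4982 bp, and that of GPNMB at -16007 bp. Among all 22702 shared regions the share in the top 10% of both lists was 12.4%. With such a region within 10 kb of a TSS, MLANA and GPR143 made 2 of 6 members, against 1.87% of all protein-coding genes. At the other end, 3 shared regions had a score below the median of a list, the pair at PMEL and that in the AluJb repeat of MLANA. The median percentile of all summits named for the members was 55.0 in replicate 1 and 68.7 in replicate 2, where the median over a whole list is by definition at its middle. Summits of a shared region lay a median of 27 bp apart, from 4 to 99 bp, and the median over all shared regions was 28 bp.

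**Figure D3:**
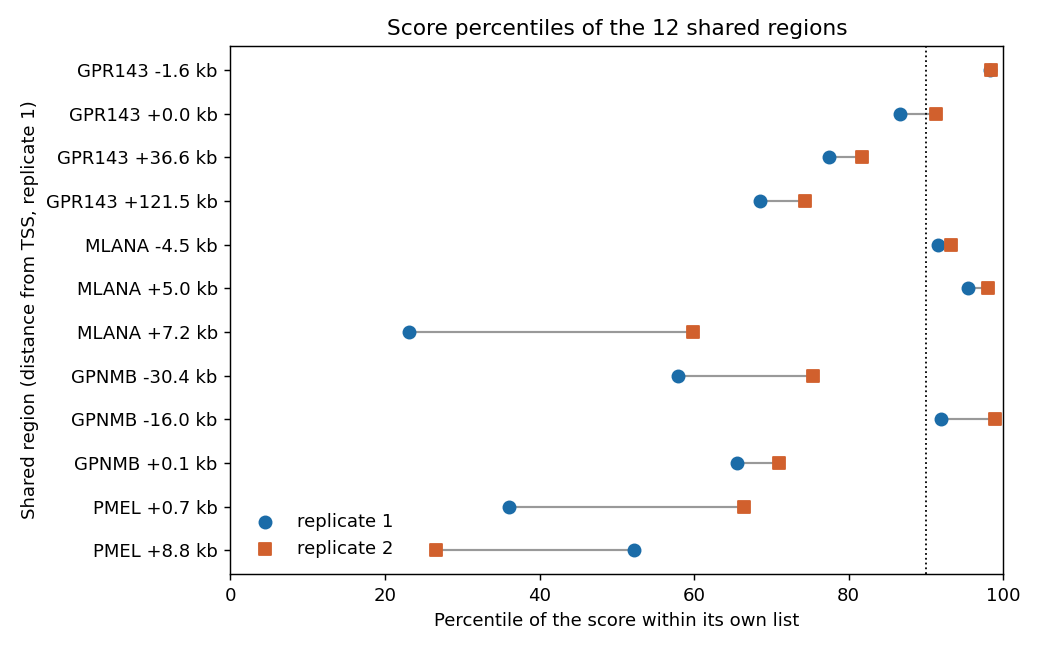
Percentile of the score within its own list for each of the 12 shared regions, named by gene and distance from the TSS in replicate 1; circles are replicate 1, squares replicate 2, and the dotted line marks the 90th percentile. At GPR143 -1621 bp the 2 points overlap, at 98.3 and 98.4, and the regions of PMEL and of MLANA at 7220 bp have the widest gaps.

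By position, the members' summits were nearer to starts than most. Of 18 summits, 10 in replicate 1 and 11 in replicate 2 were within 10 kb of a TSS, against 16.3% and 16.0% of all summits, and in each list 4 were within 1 kb, against 3.69% and 3.27%. PMEL, GPR143 and GPNMB each had a shared summit at most 1 kb away, 3 of 6 members, where 2.99% of all protein-coding genes had one. Repeats named by the annotation held 4 of the 18 summits in replicate 1 and 3 in replicate 2, where they held 43.3% of all summits in each list. Introns held 9 and 7 of the 18 summits, against 39.4% and 40.7% of all summits, and intergenic sequence held 5 and 4, against 53.3% and 52.8%. Exons held 1 summit in replicate 1, in PMEL, and 3 in replicate 2, of which 2 were in PMEL and 1 in MLANA, against 1.155% and 1.025% of all summits.

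Genes that work with the members were listed by known function: 17 for the processing and sorting of PMEL, 9 paralogs of the members and 9 partners of GPR143 and GPNMB, 34 different genes in all. Of the 34, 4 (11.8%) had a paired summit no farther than 10 kb from a start, near the 10.1% of all protein-coding genes. By list these were 3 of 17, 0 of 9 and 1 of 9. FURIN, a convertase that cuts PMEL, had summits on chromosome 15 at 90869820 and 90869770, 1228 and 1178 bp from the TSS in intron 1. Its scores were 8.84 and 9.41, at percentiles 36.2 and 36.6. PSEN2, a catalytic subunit of gamma-secretase, had summits on chromosome 1 at 226863641 and 226863592, at -6931 and -6980 bp, with scores of 19.3 and 32.1. PDCD6IP (ALIX), an adaptor of endosomal sorting, had summits on chromosome 3 at 33789403 and 33789404, at -9168 and -9167 bp, with scores of 14.9 and 44.2. GNAI1, an inhibitory G protein subunit, had summits on chromosome 7 at 80127980 and 80127943, at -6844 and -6881 bp, with scores of 37.3 and 62.0. None of these scores was in the top 10% of its list, and for no listed gene was one found at 1 kb or less.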

How the data were processed

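ChIP-seq of TBX3-3xHA was analysed in 2 ChIP samples, with groups and replicate numbers taken from the sample titles. Each list was annotated by the authors with annotatePeaks.pl against hg38, per the file headers, 1 list per sample. FastQC 0.11.7, cutadapt 2.8, Bowtie2 2.3.5, SAMtools 1.9 and MACS2 2.1.2 were used, per the submitters' processing notes, which give no settings here. Deposited with each summit was the authors' peak score, of no stated scale, which ran from 2.01 to 789.3 in replicate 1 and from 2.00 to 805.6 in replicate 2. Positions, distances to the TSS and annotation classes were likewise deposited. Read depth per sample is unknown, so the number of summits may depend on it.

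Summits were paired, ranked and counted in Python 3.11.15 with pandas 2.3.3. Wilson intervals came from scipy 1.17.1. Percentiles are within a list. Protein-coding genes are those of RefSeq (GRCh38.p14) on chromosomes 1 to 22 and X, matched by gene identifier. Start sites implied by deposited distances lay within 200 bp of a RefSeq start at 81.9% of 877 summits near a TSS (median difference 23 bp), so both coordinate sets were used together. The pairing code was run on simulated summits set far apart, with partners either inside the 200 bp limit or well beyond it. All planted pairs were recovered. That checks the code only, and summits lying close together were not simulated. All 6 members are named, and of the partner genes those with a shared region within 10 kb; the closing section names 5 others, chosen after their values were seen. Members, lists, motifs and settings were chosen with earlier results of these data known. Alternatives covered the pairing distance, a score limit, the distance to the TSS, the assignment of summits, the summits ranked and single replicates.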

Additional observations from a re-analysis of the deposited data

How the results depend on the processing

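Of 48 alternatives, 36 stayed near the reported value: counts within 1.5 times, shares within their 95% interval, and median percentiles within the SD between replicates. The 4 members with a shared region within 10 kb fell to 0 when both summits had to be at the same base, a setting that took the recurring share to 0% in both lists. With either replicate alone the count was 4, of the same genes. That does not measure stability, because a shared region has a summit in each list and CD63 and BACE2 were named for none. The same holds for the looser limits of 500 bp and 50 kb, and for the 0 shared regions of CD63 and BACE2 under every setting. These alternatives are among the 36. Pairing within 50 bp, or scores at or above the median, left 3 members, without PMEL, whose shared regions fell from 2 to 0 under each. Limiting each list to scores at or above its median left 10 and 11 member summits in replicates 1 and 2. With both lists limited in this way, so that partners too had to pass, 90% and 81.8% of these recurred. Only recurring summits gave median percentiles of 73.0 and 78.5. The 4 partner genes became 0 within 1 kb and 8 within 50 kb, 6 without replicate 1 and 5 without replicate 2. Causes were not tested; the stricter settings by construction keep fewer summits. No paired analysis was possible because only the ChIP samples were analysed and they form a single condition. The unknown depth limits every statement on a missing summit.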

Other observations

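At any distance, 11 of the 34 partner genes had a shared region, where 28.6% of all protein-coding genes did. Those with a region above the 95th percentile of both lists are the 5 genes named here, chosen after their values were seen. The share of all protein-coding genes with such a region was not counted, so the 5 are only listed. PCSK6, a proprotein convertase, had summits on chromosome 15 at 101455462 and 101455471 in intron 1 of its transcript, 34522 and 34513 bp from the TSS, with scores of 265.5 and 300.05. ADAM10, a protease that can shed membrane proteins, had summits at 58732147 and 58732098 on the same chromosome, in intron 1 of 15 and 17831 and 17880 bp from the TSS, with scores of 135.4 and 183.9. CD9, a tetraspanin related to CD63, had summits on chromosome 12 at 6230961 and 6230932, with scores of 141.8 and 174.4. ITGB1, an integrin subunit, had an intergenic region on chromosome 10 at percentile 99.0 in both lists. Its summits were at 33146181 and 33146182, at -187816 and -187817 bp. Another intergenic region lay nearer to ITGB1, at -142754 and -142759 bp, at percentiles 97.4 and 97.8. APH1B, a subunit of gamma-secretase, had summits on chromosome 15 at 63324163 and 63324164, 46613 and 46614 bp from the TSS in an exon of a non-coding transcript, with scores of 130.7 and 170.0.

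The T-box core GGTGTGA was present in 1 of the 8 RefSeq promoter windows of CD63, at 26 to 32 bases downstream of the start at 55730041. The shorter GTGTGA alone was in the overlapping windows 55728303 to 55728602 and 55728305 to 55728604. There it lay 36 to 41 and 38 to 43 bases downstream of the start. CD63 had no summit within its span in either list.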
